A study of Mus musculus with 16 samples.

Results

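The axon guidance ligands and receptors studied here are 69 mouse genes of 13 groups: class 3 semaphorins, class 4 to 7 semaphorins, neuropilins, plexins, ephrin-A and ephrin-B ligands, EphA and EphB receptors, slits, robos, netrins, netrin-Gs and the Unc5 receptors. They were chosen by symbol alone, as every one of the 48397 gene symbols in the count tables that follows the naming pattern of these families. Their messages made up 0.357% to 0.546% of the reads counted on genes in each library. Of the 69 genes, 36 encode ligands and 33 encode receptors, and 66 had enough reads to be tested. The 3 that did not were Ntn5, with 34 reads over the 16 libraries, Robo4 with 22 and Sema3g with 79.

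RNA was sequenced from primary hippocampal neurons of wild-type CD1 mice, taken from pups between day 0 and day 2 after birth, given the antimitotic AraC at 3 days in vitro (DIV) and harvested at 17 DIV. At 10 and 13 DIV the cultures received 10-fold concentrated medium of immortalized astrocytes. The medium came from astrocytes of mice in which the mouse gene had been replaced by human APOE, homozygous for APOE ε2, ε3 or ε4 (apoE2, apoE3 and apoE4 lipoproteins), or from Apoe-/- astrocytes, whose medium carries no apoE and served as the control. Each of the 4 groups had 4 libraries, numbered 1 to 4, with 14087723 to 34248172 reads on genes per library. ApoE2 replicate 4 and apoE4 replicate 2 stood apart from the other 14 libraries. Their reads not on a gene came to 38.4% and 38.6% against 51.4% to 73.7%, reads that did not align to 16.7% and 13.9% against 22.0% to 34.9%, and the mitochondrial enzyme gene Lars2 took 0.690% and 0.359% of gene counts against 2.83% to 15.02%. Counts of calls without both are given beside those with them. Each medium came from its own astrocyte line, so apoE isoform and any other difference between the lines cannot be told apart. From the bulk RNA counts alone, fewer cells of a type and less RNA per cell cannot be told apart either.

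Guidance molecules steer growing axons and dendrites and later act at synapses. Semaphorins signal through plexins, and the secreted class 3 members need a neuropilin as the binding partner for most of their actions. Ephrins and Eph receptors are both membrane-bound and signal in both directions at cell contacts. Slits repel axons through robos. Netrin-1 attracts through Dcc and repels through Unc5 receptors, and the lipid-anchored netrin-Gs bind the synaptic adhesion proteins Lrrc4c and Lrrc4. In the hippocampus these families shape the laminated mossy fibre and perforant path connections, dendritic branching and spine number.

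To show the proximal promoters of the guidance genes on which the apoE3 comparison turns, the GC box, GGGCGG or its reverse complement CCGCCC on either strand, a letter pattern shared by many promoters, was searched in RefSeq windows (GRCm38.p6) of 300 bases, 250 before and 50 after the annotated start. At least 1 window held it in 44 of the 60 guidance genes with a window (73.3%), in 66.6% of the 11600 tested genes with one and in 38.2% of 27025 genes overall. Overlapping matches were counted separately. Of the genes that the block fit called higher with apoE3, described further on, 9 of 10 with a window held it, and of those called lower 6 of 10. Only boxes whose 30 printed bases all lay before the start were eligible. The nearest of these is shown in capitals for each gene, with the plus-strand position of the 30 bases.
Plxnb1, chr9:109095372-109095401: gggcggcccgacGGGCGGggggtggggggg
Sema3c, chr5:17574645-17574674: ctgcagccggctGGGCGGtgcgcccgggca
Nrp1, chr8:128358963-128358992: tgtgcggggaggGGGCGGgaggaagggagg
Nrp2, chr1:62703278-62703307: ggaacacagaagGGGCGGgccctgagcggg

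The capitals began 52 bases before the RefSeq start of Plxnb1, 159 before that of Sema3c, 98 before that of Nrp1 and 27 before that of Nrp2. In the GENCODE M21 models, which reach further upstream, 13 of the 30 bases of Plxnb1, 30 of Sema3c and 23 of Nrp2 lay in an exon of the gene, and the Nrp1 stretch lay in an intron. Plxnb1 and Nrp2 had 5 boxes each, Sema3c 3 and Nrp1 1, whereas the windows of Ntng2 and Sema5b had none. The raised and lowered genes of the apoE3 comparison both included genes with the pattern, and its presence here describes letters and not a bound site.

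The control neurons expressed receptors and ligands of every family. Levels between genes are given as CPM per kilobase of exon, CPM being read counts scaled to libraries of 1 common size, as mean ± SD of the 4 control libraries. Epha4, an Eph receptor that binds ephrins of both classes, had the highest level of all at 74.5 ± 11.2 CPM per kb, followed by the semaphorin co-receptor Nrp1 at 50.9 ± 5.77 and the transmembrane ligand Efnb3 at 48.7 ± 10.7. The ranges of Nrp1 (45.1 to 58.4) and Efnb3 (33.4 to 56.3) overlapped, while the lowest Epha4 library (64.9) lay above both. The median over the 66 tested guidance genes was 4.31 CPM per kb, against 3.38 over 16458 tested genes with a known length. In all, 17 of the 66 exceeded 10 CPM per kb and 11 were below 1.

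**Figure D1:**
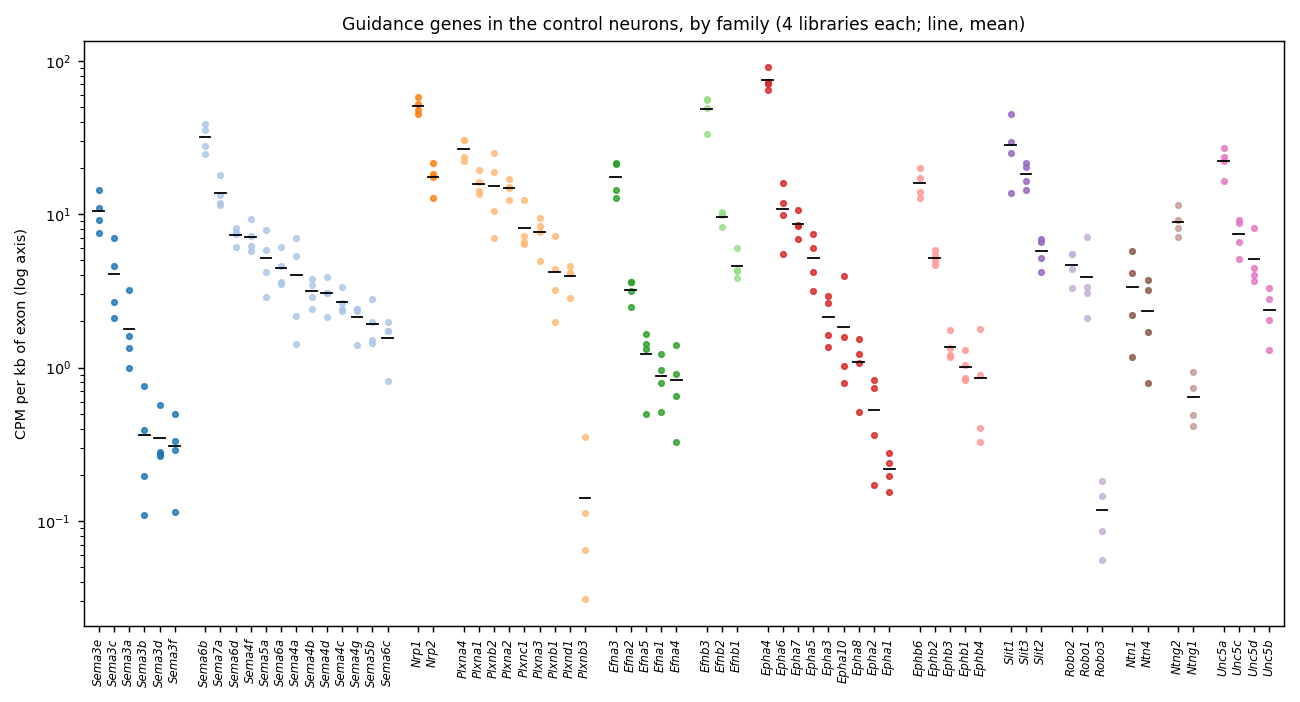
Level of each tested guidance gene in the 4 control libraries, in CPM per kb of exon on a log axis, grouped by family and ordered within it; points are libraries and lines their means. Epha4, Nrp1 and Efnb3 stand at the top, and Robo3 and Plxnb3 have the lowest means.

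Among the ligands, the secreted Sema3e (10.5 ± 2.96) and Sema3c (4.09 ± 2.21) led class 3 and their ranges did not overlap, and Sema3f, a Nrp2 ligand, was low at 0.308 ± 0.157. The transmembrane Sema6b (31.7 ± 6.42) and the lipid-anchored Sema7a (13.7 ± 3.09) led the other classes. Efna3 (17.4 ± 4.55) and Efna2 (3.22 ± 0.531) were the leading ephrin-A genes, and Efnb2 (9.63 ± 0.978) came after Efnb3. Slit1 (28.2 ± 12.8) and Slit3 (18.2 ± 3.41) overlapped each other and exceeded Slit2 (5.72 ± 1.24). The netrins were moderate, with Ntn1 at 3.33 ± 2.05 and Ntn4 at 2.35 ± 1.34, and Ntng2 (8.94 ± 1.87) exceeded Ntng1 (0.643 ± 0.237) in every control library.

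Among the receptors, Nrp1 exceeded Nrp2 (17.5 ± 3.63), and Plxna4 (26.7 ± 4.37), the plexin-A that pairs with neuropilins in Sema3a signalling, exceeded Plxna1 (15.8 ± 2.65), with no overlap in either pair. Plxnd1, the direct receptor of Sema3e, was at 3.93 ± 0.759. Epha6 (10.8 ± 4.35) followed Epha4 at a distance and overlapped Epha7 (8.60 ± 1.57). Ephb6, whose kinase domain is inactive, was the leading EphB at 15.9 ± 3.24, above Ephb2 (5.21 ± 0.518). Robo2 (4.67 ± 1.05) and Robo1 (3.92 ± 2.22) overlapped, and Robo3 was near the floor at 0.117 ± 0.0569. Unc5a (22.2 ± 4.30) lay above Unc5c (7.37 ± 1.89).

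The replicate number accounted for more of the variation among these genes than the lipoprotein did. In the median guidance gene, 68.5% of the variance of log2 CPM lay between the 4 numbers and 15.1% between the 4 groups, against 56.1% and 14.4% over all tested genes. A test of the 4 numbers called 56 of the 66 guidance genes (84.8%) at an adjusted p under 0.05, and 63.8% of all tested genes. Libraries with the same number deviated together from their group means in every pairing. No source used here says that a number marks a shared culture. The replicate block, the same fit with the replicate number as a further term, is given beside each result whose call it changes.

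**Figure D2:**
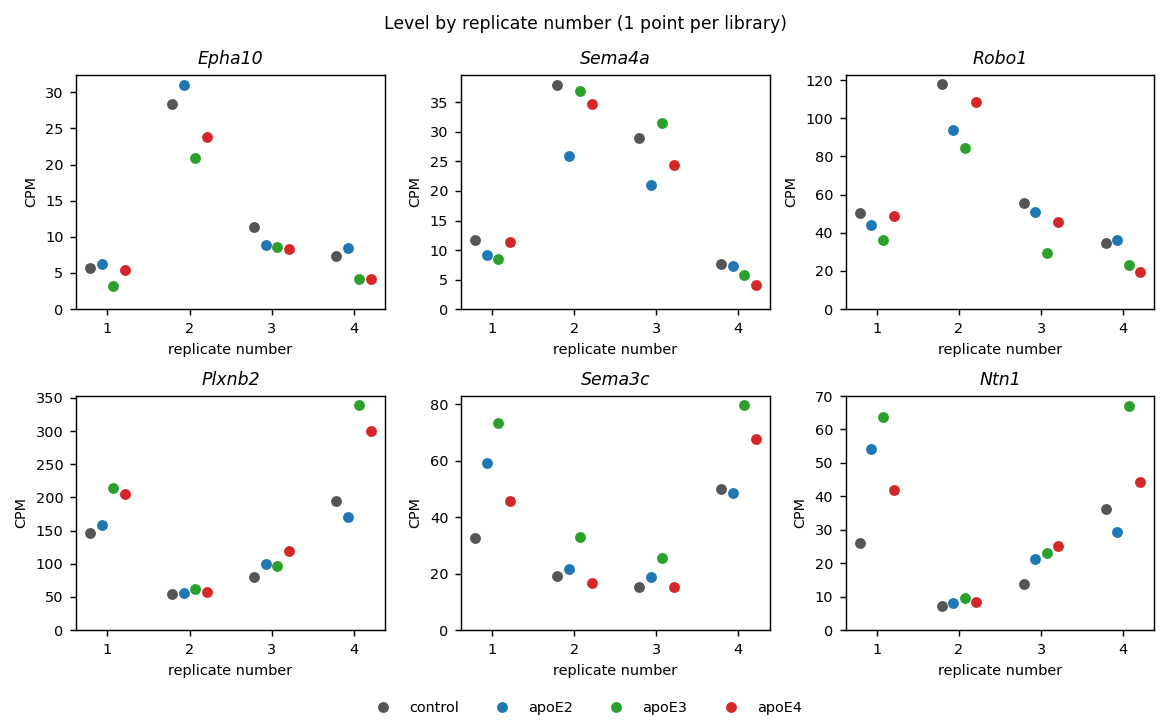
CPM of 6 guidance genes by replicate number, with 1 point per library coloured by group and axes starting at 0. The means of Epha10, Sema4a and Robo1 are highest in number 2, and those of Plxnb2, Sema3c and Ntn1 in number 1 or 4.

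The 5 genes with the strongest differences between numbers fell into opposite patterns. Epha10, an Eph receptor with an inactive kinase domain, averaged 26.0 CPM in number 2 (range 20.9 to 31.1) and 5.13 in number 1 (F = 112, adjusted p = 1.85e-08). Sema4a averaged 33.9 CPM in number 2 and 6.20 in number 4 (adjusted p = 5.34e-08). Both receptor and ligand were thus highest in the cultures numbered 2. Plxnb2, a receptor of class 4 semaphorins, averaged 251 CPM in number 4 and 57.7 in number 2 (adjusted p = 3.40e-08). Sema3c averaged 61.5 CPM in number 4 and 18.7 in number 3 (adjusted p = 1.11e-07), and Ntn1 46.4 CPM in number 1 and 8.40 in number 2 (adjusted p = 1.93e-07). Of the 56 genes called, 24 were highest and 14 lowest in number 2, and 12 were highest and 23 lowest in number 4. The same counts were not made over all tested genes, so they do not set the guidance genes apart.

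Markers of the neurons themselves were present throughout. The summed level of 8 neuronal markers was 5986 ± 1401 CPM in the control libraries and 5564 ± 1886 with apoE3 (SD, n = 4). It ranged from 4594 to 7625 CPM in the control libraries, from 4887 to 7855 with apoE2, from 3427 to 7278 with apoE3 and from 3798 to 7209 with apoE4. The summed level of 8 astrocyte markers (Gfap, Aqp4, Aldh1l1, Slc1a2, Slc1a3, S100b, Gja1 and Aldoc) ranged from 1412 to 3162 CPM in the control libraries, from 1309 to 3151 with apoE2, from 1700 to 6581 with apoE3 and from 1571 to 5359 with apoE4, and none of the 8 was at 0. Astrocyte messages were thus counted in every library, and several guidance genes are known from glia as well as neurons.

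Neurons treated with apoE3 lipoproteins were compared with control neurons to ask which guidance genes differed between them. The plexin Plxnb1 and the secreted ligands Ntn1, Sema3c and Sema3e had higher levels with apoE3, by 2.42-, 1.95-, 1.81- and 1.33-fold, in all 4 replicate numbers. The neuropilins Nrp1 and Nrp2, the receptors Epha6, Robo1 and Robo2 and the ligands Efnb3 and Ntng2 had lower levels in all 4 numbers, by 1.30- to 1.67-fold. These differences passed the test only in fits with the replicate block. Without the block, 0 of the 66 guidance genes passed an adjusted p of 0.05 (edgeR quasi-likelihood test; 0.00587% of all tested genes), the smallest adjusted p being 0.437 for Efnb3. By unadjusted p under 0.05 there were 8, which is 12.1% of them, against 6.43% of all tested genes, and DESeq2 called 0 (background 0.352%). A 2-fold criterion with the cutoffs of the study, a 2-fold change and an unadjusted p below 0.05, was applied here with the edgeR p, which is not the test the study used. Plxnb1 alone among the guidance genes met it (1.96% of all tested genes did), and 0 met it without apoE3 replicate 4.

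With the replicate block, 23 of the 66 guidance genes (34.8%) were called with apoE3, against 11.7% of all tested genes, and DESeq2 with the block called 25 (background 15.8%). The 2-fold criterion was met by 3 in this fit (background 4.77%). The 11 called higher (background 7.95%) were the ligands Efna4, Efna5, Efnb2, Ntn1, Ntn4, Sema3c, Sema3e and Sema6d and the receptors Epha2, Plxnb1 and Plxnb2. The 12 called lower (background 3.73%) were the receptors Epha4, Epha6, Epha8, Epha10, Nrp1, Nrp2, Robo1, Robo2 and Unc5d and the ligands Efnb3, Ntng2 and Sema5b. Ligands thus made up 8 of the 11 called higher and 3 of the 12 called lower, with 34 ligands and 32 receptors among the tested genes. This split was not tested. The count was 26 (background 15.6%) with apoE2 replicate 4 and apoE4 replicate 2 both left out, and fell to 13 without control replicate 4 (background 6.9%), 12 without apoE3 replicate 4 (background 5.59%) and 11 without apoE3 replicate 1 (background 5.3%). Without control replicate 1 it was 9 of 66 (13.6%, background 4.44%), and the 9 were Efnb3, Epha6, Nrp1, Ntng2, Plxnb1, Robo1, Robo2, Sema3c and Unc5d. The median log2 fold change over the 66 genes was -0.07, against 0.02 over all tested genes, without the block.

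**Figure D3:**
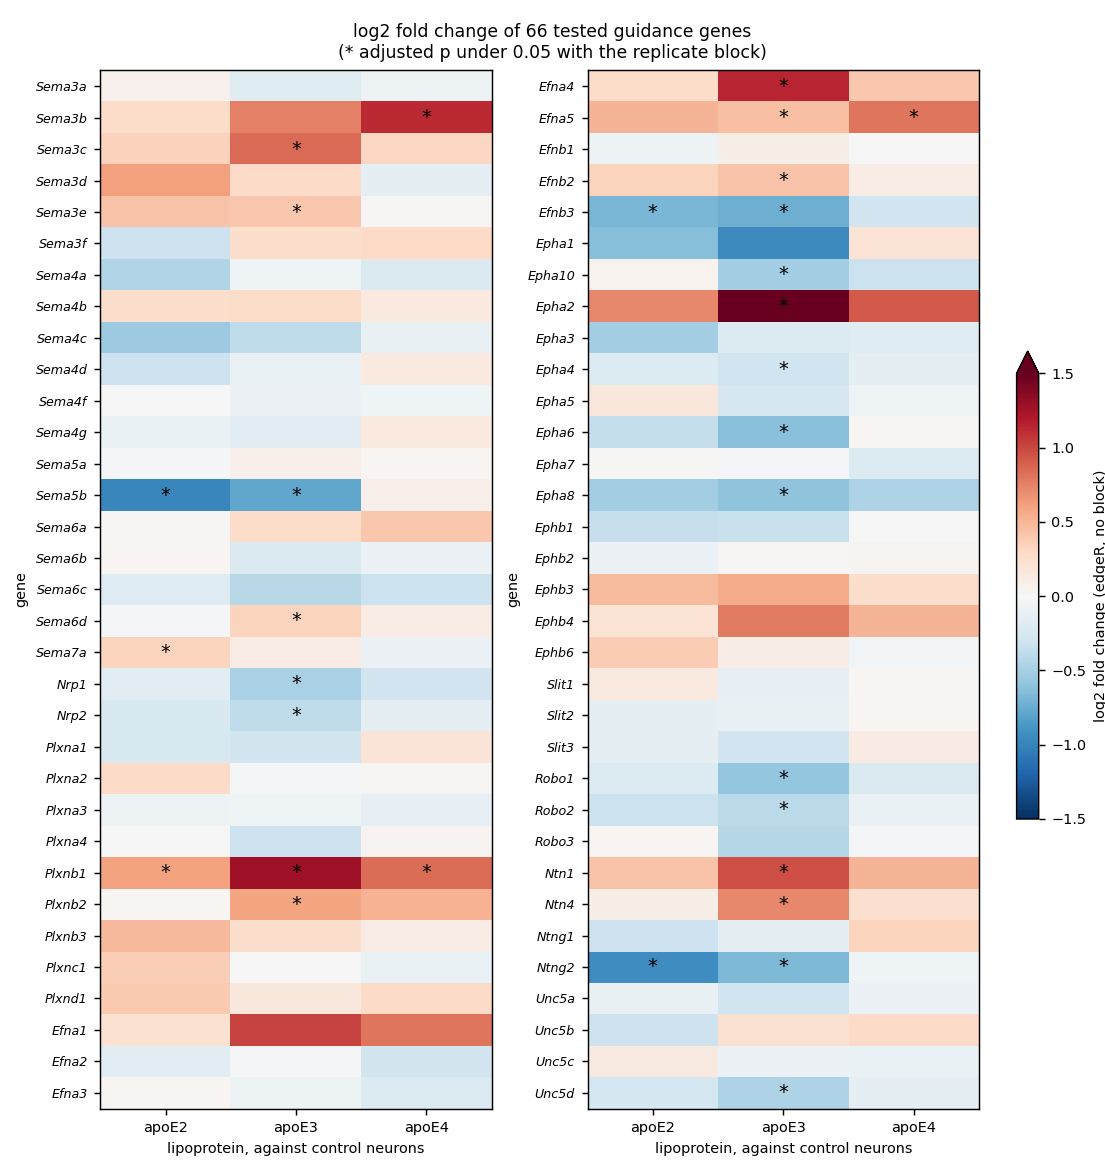
Heat map of the log2 fold change (edgeR, no block) of the 66 tested guidance genes with apoE2, apoE3 and apoE4 lipoproteins against control neurons, red for higher and blue for lower, with asterisks where the adjusted p with the replicate block was under 0.05. Asterisks mark 23 genes for apoE3 (34.8%, against 11.7% of all tested genes), 5 for apoE2 (7.58% against 1.73%) and 3 for apoE4 (4.55% against 3.3%). The scale is clipped at 1.5.

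Astrocyte markers moved with this comparison. Their summed level averaged 2296 ± 729 CPM in the control libraries and 4002 ± 2049 with apoE3, and 7 of the 8 were called higher with the block. Oligodendrocyte lineage markers (3 of 8 called higher), fibroblast and mural markers (2 of 9) and, among 3 tested endothelial markers, Flt1 also moved. Of 6 cell division genes 1 was called, Top2a, at 2.18, 2.46, 4.57 and 7.44 CPM in control and at 26.5, 35.01, 15.8 and 16.5 CPM with apoE3, and the other 5, Mki67 among them, had no call. Of the 8 neuronal markers Tubb3 was called higher and Snap25 and Nefl lower, and of the markers of neuronal classes Slc17a6 (excitatory, 1 of 5) was called higher and Gad1 (inhibitory, 1 of 5) lower. Across replicate numbers, the 11 guidance genes called higher had a median deviation from their own mean of 0.52 in number 1, -0.84 in number 2, -0.22 in number 3 and 0.80 in number 4 on the log2 scale. Above that mean were 9 of the 11 in number 1, 1 in number 2, 4 in number 3 and 10 in number 4. The summed astrocyte markers averaged 3295 CPM in number 1, 1498 in number 2, 3076 in number 3 and 4524 in number 4. For the 12 called lower the median deviation was -0.09 in number 1, 0.34 in number 2, -0.03 in number 3 and -0.22 in number 4, with 4, 11, 6 and 4 of them above their mean. The summed neuronal markers averaged 4803, 6892, 7492 and 4223 CPM in numbers 1 to 4, and the summed excitatory markers 1436, 2101, 2185 and 832 CPM. Library measures moved as well. Reads that did not align were more frequent with apoE3 in each number, at 32.8%, 23.9%, 23.2% and 34.9% in replicates 1 to 4 against 29.3%, 22.7%, 22.0% and 28.5% in control. The share of gene counts on the 69 guidance genes was lower with apoE3 in each number, at 0.398%, 0.506%, 0.441% and 0.370% against 0.508%, 0.518%, 0.489% and 0.440%, and so was the total on genes, which ranged from 14087723 to 26771984 with apoE3 and from 18569593 to 28482361 in control. The part of these markers and library measures in the changes was not tested.

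Plxnb1 is the receptor of the transmembrane semaphorin Sema4d. Among the guidance genes with a call in every fit of the block that left out a library, it had the largest change with apoE3. It was at 41.9, 19.0, 30.5 and 69.0 CPM in control replicates 1 to 4, and at 102, 44.3, 104 and 138 CPM with apoE3. Each apoE3 library exceeded the control library of its number, and the groups overlapped only because of apoE3 replicate 2. The log2 fold change was 1.27 ± 0.48 (SE; adjusted p = 0.757), and with the block it was 1.31 ± 0.16 (adjusted p = 0.000334). Its ligand Sema4d was at 23.4 ± 5.55 CPM in control and 21.8 ± 5.36 CPM in apoE3-treated neurons. Plxnb2 followed number more than group, at 119 ± 63.3 against 178 ± 125 CPM (block log2 fold change 0.47 ± 0.13, adjusted p = 0.0272, lost in 5 of 16 fits with a library left out, at up to 0.123).

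Among the secreted class 3 ligands, Sema3c, which signals through both neuropilins, was at 32.6, 19.2, 15.1 and 50.1 CPM in control and at 73.3, 32.9, 25.4 and 79.8 CPM with apoE3. All 4 numbers were higher with apoE3 while the groups overlapped (log2 fold change 0.85 ± 0.57, adjusted p = 0.806; with the block 0.84 ± 0.14, adjusted p = 0.00205). Sema3e was at 85.3, 69.5, 134 and 102 CPM in control and 121, 111, 167 and 118 CPM with apoE3, again higher in each number (block 0.43 ± 0.10, adjusted p = 0.0156, lost in 2 of 16 fits with a library left out, at up to 0.0730). Sema3a, the classic collapsing factor for axonal growth cones, was at 24.8 ± 13.5 against 21.8 ± 8.35 CPM and showed no call (block adjusted p = 0.505). Sema3f was at 1.60 ± 0.815 against 1.93 ± 0.866 CPM, likewise without one.

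Both neuropilins went the other way. Nrp1 was at 468, 571, 510 and 442 CPM in control and at 344, 513, 332 and 233 CPM with apoE3. Every number was lower, and apoE3 replicate 2 alone lay within the control range (log2 fold change -0.49 ± 0.20, unadjusted p = 0.0293, adjusted p = 0.757; with the block -0.52 ± 0.12, adjusted p = 0.0101). Nrp2 was at 218, 206, 152 and 256 CPM in control and 168, 173, 125 and 174 CPM with apoE3 (block -0.37 ± 0.09, adjusted p = 0.0191, lost in 4 of 16 such fits, at up to 0.0850). The plexin-A partners showed no call: Plxna4 was at 376 ± 61.6 against 304 ± 88.7 CPM and Plxna3 at 59.8 ± 15.1 against 57.4 ± 6.08 CPM. Plxnd1 was at 28.7 ± 5.54 against 31.9 ± 6.37 CPM.

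In the ephrin system, the ligand Efnb3 was at 179, 158, 106 and 178 CPM in control and at 90.8, 133, 74.1 and 74.9 CPM with apoE3. It was lower in each number, with apoE3 replicate 2 inside the control range (log2 fold change -0.74 ± 0.19, adjusted p = 0.437; with the block -0.73 ± 0.14, adjusted p = 0.00524). Efnb2, an arterial and neuronal ephrin, was at 56.2, 68.8, 67.7 and 71.3 CPM in control and 78.5, 106, 106 and 63.6 CPM with apoE3. It was higher in 3 of the 4 numbers and lower in number 4 (block 0.41 ± 0.12, adjusted p = 0.0375, and 0.128 at most when 1 library was left out). Efna5 averaged 4.94 ± 2.03 against 6.75 ± 1.93 CPM and stood at the edge of the threshold (block adjusted p = 0.0485, lost in 14 of 16 fits with a library left out), and Efna3 did not pass, at 42.4 ± 11.1 against 40.1 ± 11.2 CPM.

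Of the 9 EphA receptors, 8 had a log2 fold change below 0 with apoE3 without the block, as did 47.6% of all tested genes, and with the block 4 were called lower (background 3.73%) and 1, Epha2, higher (background 7.95%). Epha2, a receptor of ephrin-A ligands, was at 3.46, 0.805, 1.71 and 3.88 CPM in control and at 12.3, 0.902, 2.29 and 12.7 CPM with apoE3. It was higher in each number, with replicates 1 and 4 of apoE3 above every control library (log2 fold change 1.51 ± 0.90, adjusted p = 0.803; with the block 1.19 ± 0.30, adjusted p = 0.0180, lost in 4 of 16 fits with a library left out, at up to 0.111). Epha6 was at 52.3, 84.3, 62.8 and 28.9 CPM in control and at 28.0, 70.6, 40.0 and 9.12 CPM with apoE3, lower in every number (block -0.81 ± 0.17, adjusted p = 0.00891). Epha4 was at 565, 585, 730 and 522 CPM against 460, 559, 575 and 361 CPM, also lower in every number (block -0.30 ± 0.09, adjusted p = 0.0467, and up to 0.167 with a library left out). Epha10 differed by -0.57 ± 0.16 with the block (adjusted p = 0.0283, up to 0.0952 with a library left out), although its log2 fold change without the block turned to 0.19 when control replicate 2 was left out. Epha5 (87.0 ± 31.9 against 72.8 ± 36.4 CPM) and the EphB receptor Ephb2 (65.7 ± 6.53 against 66.7 ± 6.34 CPM) had no call. Of the 5 EphB receptors 0 were called with apoE3 (background 11.7%).

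Robo1 and Robo2 were called lower, while Robo3 and the slits gave no call. Robo1 was at 50.5, 118, 55.6 and 34.6 CPM in control and at 36.3, 84.3, 29.6 and 22.8 CPM with apoE3 (block -0.61 ± 0.14, adjusted p = 0.0111). Robo2 was at 74.6, 93.3, 93.4 and 56.0 CPM against 49.7, 85.8, 72.0 and 31.3 CPM (block -0.46 ± 0.10, adjusted p = 0.00937). Both fell short of their control partner in each of the 4 numbers, with overlap between the groups. Robo3 was low, at 0.804 ± 0.390 against 0.596 ± 0.331 CPM (block adjusted p = 0.533). Slit1 was at 167 ± 76.1 against 154 ± 82.8 CPM and Slit2 at 145 ± 31.6 against 135 ± 58.2 CPM.

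Both tested netrins were called higher and the netrin-G Ntng2 lower. Ntn1 was at 26.1, 7.37, 13.9 and 36.3 CPM in control and at 63.8, 9.68, 23.1 and 67.1 CPM with apoE3 (block 0.84 ± 0.18, adjusted p = 0.00870, and 0.0521 without control replicate 1). Ntn4 was at 11.96, 2.98, 6.35 and 13.9 CPM against 19.2, 4.67, 7.73 and 26.2 CPM (block 0.65 ± 0.17, adjusted p = 0.0218, lost in 4 of 16 fits with a library left out, at up to 0.121). The rise held in each number for both genes. Unc5d, a repulsive netrin receptor, was at 37.1, 75.1, 33.6 and 41.3 CPM in control and at 25.7, 63.1, 26.6 and 19.6 CPM with apoE3 (block -0.52 ± 0.12, adjusted p = 0.0117, and up to 0.0523 with a library left out). Unc5c showed no call, at 141 ± 36.1 against 132 ± 58.3 CPM.

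**Figure D4:**
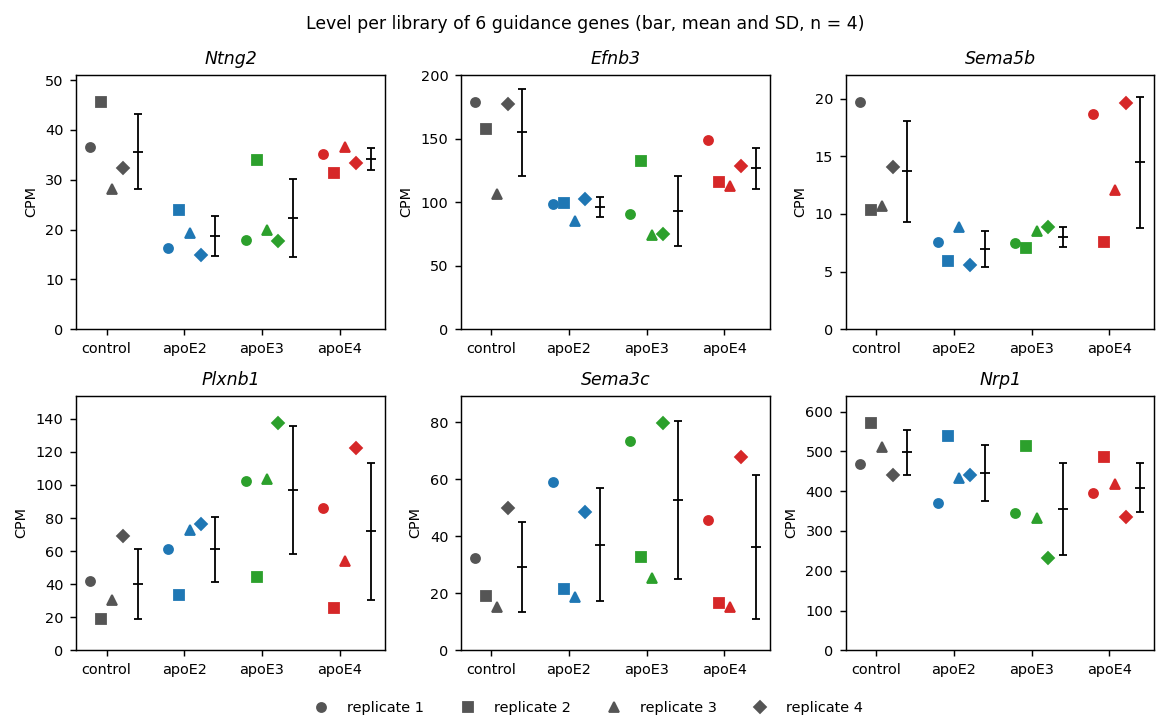
CPM of Ntng2, Efnb3, Sema5b, Plxnb1, Sema3c and Nrp1 in all 16 libraries, with symbols for the replicate number and bars for the mean and SD (n = 4). Ntng2 and Sema5b are low with apoE2 and apoE3 and near the control level with apoE4, whereas Plxnb1 is higher than its control of the same number in every lipoprotein-treated library.

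With apoE2 lipoproteins, the ligands Ntng2, Sema5b and Efnb3 were at lower levels than in control neurons, by 1.91-, 1.97- and 1.61-fold, and Plxnb1 and Sema7a were at higher levels, by 1.52- and 1.26-fold. Each of the 5 differences went 1 way in the 4 replicate numbers. In edgeR they passed the test with the block only, and Ntng2 also passed in DESeq2 without it (adjusted p = 0.0389). Without the block 0 of 66 guidance genes were called (0% of all tested genes; smallest adjusted p 0.651, Ntng2), 4 had an unadjusted p under 0.05 (background 2.79%), DESeq2 called 1, Ntng2 (background 0.17%), and 0 met the 2-fold criterion (background 0.722%). With the block 5 were called (7.58%, background 1.73%): 2 higher (background 1.17%) and 3 lower (background 0.552%). DESeq2 with the block called 9 (background 4.16%), and 0 met the 2-fold criterion in the block fit (background 1.56%). The block count was 1 or 2 without any 1 control library, without apoE2 replicate 1, 2 or 3 or without apoE3 replicate 3 (background 0.247% to 1.29%), was 3 without apoE4 replicate 1 (background 1.36%), and was 10 without apoE2 replicate 4 (background 4.98%). It was also 10 (background 5.09%) with apoE2 replicate 4 and apoE4 replicate 2 both left out. The 3 comparisons with the control share its 4 libraries, so their values are not independent of each other.

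Ntng2, the netrin-G that binds the postsynaptic adhesion protein Lrrc4, kept its apoE2 call in all 16 fits of the block that left out a library. Its level was 36.6, 45.6, 28.2 and 32.3 CPM in control replicates 1 to 4, 16.3, 24.0, 19.4 and 14.9 CPM with apoE2, 17.9, 34.0, 19.9 and 17.7 CPM with apoE3, and 35.2, 31.4, 36.5 and 33.3 CPM with apoE4. All 4 apoE2 libraries lay below all 4 control libraries, and apoE3 did so except for replicate 2. The log2 fold change with apoE2 was -0.94 ± 0.22 (unadjusted p = 0.000633, adjusted p = 0.651), and with the block it was -0.94 ± 0.15 (adjusted p = 0.00760, at most 0.0463 with any library left out). With apoE3 it was -0.67 ± 0.22, and -0.69 ± 0.15 with the block (adjusted p = 0.00934). Of its exon length, 13.98% overlaps 6530402F18Rik on the same strand, so part of its count may not be separable from that gene. Ntng1 did not pass in any of the 3 (5.30 ± 1.95 CPM in control, 4.27 ± 1.72 with apoE2, 4.77 ± 2.98 with apoE3 and 6.69 ± 4.28 with apoE4).

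Efnb3 with apoE2 was at 98.7, 99.1, 85.0 and 103 CPM, all below the lowest control library at 106 CPM (log2 fold change -0.69 ± 0.19, adjusted p = 0.859; with the block -0.67 ± 0.14, adjusted p = 0.0301). Sema5b, a transmembrane semaphorin that repels axons, was at 19.7, 10.3, 10.7 and 14.04 CPM in control, 7.54, 5.88, 8.85 and 5.54 CPM with apoE2 and 7.46, 7.01, 8.53 and 8.86 CPM with apoE3. Neither lipoprotein group overlapped the control group (block -0.94 ± 0.22, adjusted p = 0.0398 with apoE2; -0.73 ± 0.22, adjusted p = 0.0421 with apoE3). Leaving out a library lost the block call in 9 of 16 fits for Sema5b and 6 of 16 for Efnb3 with apoE2, and in 8 of 16 for Sema5b with apoE3 (adjusted p up to 0.167). In all, the apoE2 and control libraries did not overlap for Efnb3, Ntng2, Sema4c and Sema5b, all lower (4 of 66, 6.06%; 1.05% of all tested genes were separated in that direction, 1.14% in the other and 2.19% in either). With apoE3 Sema4c and Sema5b were the 2 separated genes, both lower (3.03%, background 1.19% in that direction and 2.59% in either), and 0 were separated and higher (background 1.4%).

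Sema7a, the anchored semaphorin that binds Plxnc1, was at 38.9, 43.8, 59.8 and 37.7 CPM in control and at 50.3, 59.7, 70.8 and 46.3 CPM with apoE2, higher in each number (block 0.34 ± 0.07, adjusted p = 0.0331, and up to 0.158 with a library left out). Plxnb1 with apoE2 was at 61.0, 33.6, 73.0 and 76.6 CPM, also higher in each number (block 0.70 ± 0.16, adjusted p = 0.0407, lost in 10 of 16 fits with a library left out). Sema3e was close to the threshold with apoE2, at 131 ± 40.4 CPM (block 0.42 ± 0.10, adjusted p = 0.0526). With the block 0 of 8 astrocyte markers were called with apoE2, and the cell division gene Top2a was called higher.

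With apoE4 lipoproteins the receptor Plxnb1 and the ligands Efna5 and Sema3b were at higher levels than in control neurons, by 1.79-, 1.75- and 2.17-fold, again with a call only in the block fit. Ntng2 was 1.05-fold lower than in control, higher in 2 of the 4 numbers and lower in 2. Nrp1, Nrp2, Robo1 and Robo2 were 1.22-, 1.11-, 1.16- and 1.08-fold lower, below the control library in each of the 4 numbers and without a call (block adjusted p 0.214, 0.478, 0.302 and 0.590). Without the block 0 of 66 were called (0.194% of all tested genes), 0 had an unadjusted p under 0.05 (background 3.3%), DESeq2 called 0 (background 0.534%) and 0 met the 2-fold criterion (background 1.15%). With the block 3 were called, all higher (4.55%, background 3.3% in either direction and 3.18% for higher), DESeq2 with the block called 4 (background 5.65%), and 1, Sema3b, met the 2-fold criterion in the block fit (background 2.5%). The apoE4 and control libraries overlapped for every tested guidance gene (1.91% of all tested genes were separated). Plxnb1 was at 85.8, 25.6, 54.2 and 122 CPM (block 0.79 ± 0.16, adjusted p = 0.0130, lost in 4 of 16 fits with a library left out, at up to 0.0793), and Efna5, a repulsive ligand in topographic mapping, rose in each number from 6.68, 2.01, 5.72 and 5.34 CPM to 12.3, 4.45, 10.2 and 7.68 CPM (block 0.82 ± 0.15, adjusted p = 0.00740). Sema3b was at 1.86, 0.523, 0.942 and 3.61 CPM in control and 4.81, 1.31, 2.44 and 6.46 CPM with apoE4 (block 1.19 ± 0.23, adjusted p = 0.00849, and 0.0603 without control replicate 1). The share called was close to that of all tested genes, and the count was 1 without control replicate 1 (background 1.3%) and 5 without apoE2 replicate 4 (background 5.85%). With apoE2 replicate 4 and apoE4 replicate 2 both left out it was 5 (background 5.56%). The summed astrocyte markers averaged 3506 ± 1548 CPM with apoE4 and 3 of 8 were called higher with the block, as were Cspg4, Flt1 and Col1a2 of the oligodendrocyte lineage, endothelial and fibroblast lists. Their part in the calls was not tested. Of the neuropilins, robos and slits, which hold 8 tested genes, 0 were called (background 3.3%). With so few genes and that share, the absence of a call does not set these families apart.

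**Figure D5:**
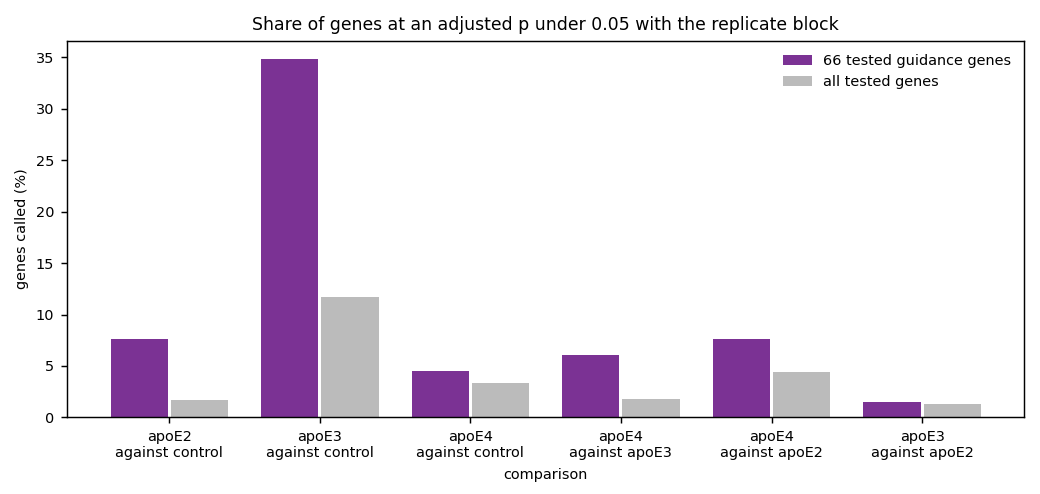
Percentage of the 66 tested guidance genes (purple) and of all tested genes (grey) called at an adjusted p under 0.05 with the replicate block in each of the 6 comparisons. The apoE3 bars reach 34.8% and 11.7%, and in the other comparisons the guidance gene bar is at most 7.58%.

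The isoforms were also compared with each other, to ask whether apoE4 differs from apoE2 and apoE3. The netrin-G Ntng2 and the plexin Plxna1 were higher with apoE4 than with either, by 1.52- and 1.39-fold over apoE3 and by 1.83- and 1.34-fold over apoE2. Between apoE4 and apoE3, 0 of 66 were called without the block (0.147% of all tested genes; 5 at an unadjusted p under 0.05, background 4.7%; DESeq2 called 0, background 0.405%) and 4 with it (6.06%, background 1.76%), 3 of them higher (background 1.07%). DESeq2 with the block called 8 (background 4.13%). Ntng2 was higher with apoE4 than with apoE3 in 3 of the 4 numbers (block 0.65 ± 0.15, adjusted p = 0.0418). Epha6 was at 50.6, 89.98, 72.3 and 19.3 CPM with apoE4, above its apoE3 level in each number (block 0.73 ± 0.17, adjusted p = 0.0464). Plxna1, a co-receptor of class 3 semaphorins, was at 194, 175, 159 and 128 CPM with apoE4 and 106, 142, 114 and 110 CPM with apoE3 (block 0.47 ± 0.10, adjusted p = 0.0334). Sema3c was the gene called lower, at 45.8, 16.6, 15.3 and 67.7 CPM with apoE4 (block -0.64 ± 0.14, adjusted p = 0.0300). Leaving out a library lost these calls in 4 to 10 of 16 fits per gene, and 0 were left without replicate 1 or 3 of either group (background 0.581% to 0.863%) and 2 without apoE2 replicate 2 or 3 (background 1.34% and 1.58%). The count was 6 (background 3.07%) with apoE2 replicate 4 and apoE4 replicate 2 both left out. Epha1 met the 2-fold criterion (background 1.25%) at a low level, 0.989 ± 0.341 against 0.449 ± 0.260 CPM (unadjusted p = 0.0139, block adjusted p = 0.154). Of the cell type markers, Gad1 was called higher and Olig2 and Top2a lower with apoE4 than with apoE3 in the block fit, and their part in these differences was not tested.

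Between apoE4 and apoE2, 0 of 66 were called without the block (0.252% of all tested genes; 5 at an unadjusted p under 0.05, background 5.34%; DESeq2 called 1, Ntng2, background 0.957%) and 5 with it (7.58%, background 4.44%), 3 of them higher (background 2.61%). DESeq2 with the block called 8 (background 7.29%). Ntng2 differed by 0.87 ± 0.22 on the log2 scale (adjusted p = 0.164; with the block 0.90 ± 0.15, adjusted p = 0.00338, at most 0.0227 with a library left out), and every apoE4 library exceeded every apoE2 library. Sema5b was at 18.7, 7.55, 12.1 and 19.6 CPM with apoE4, above apoE2 in each number. Its log2 fold change was 1.06 ± 0.29 (unadjusted p = 0.00233, adjusted p = 0.252), and with the block 0.99 ± 0.22 (adjusted p = 0.0166). It was the gene that met the 2-fold criterion without the block (background 1.3%), and 0 met it with the block (background 2.1%). Plxna1 was higher (123, 135, 140 and 92.02 CPM with apoE2; block 0.42 ± 0.10, adjusted p = 0.0289). Sema7a and its receptor Plxnc1 were both lower with apoE4 than with apoE2. Sema7a was at 38.9, 45.7, 54.4 and 30.8 CPM with apoE4 (block -0.43 ± 0.07, adjusted p = 0.00444), and Plxnc1 at 54.7, 108, 44.1 and 46.9 CPM against 63.7, 129, 79.7 and 78.2 CPM (block -0.52 ± 0.13, adjusted p = 0.0347). The Sema7a and Ntng2 calls held in all 16 fits with a library left out, while Sema5b lost its call in 3 of them and Plxna1 and Plxnc1 in 6 each. The count was 2 without apoE2 replicate 4 or apoE4 replicate 1 or 4 (background 2.42% to 2.87%), 3 without apoE2 replicate 2 or apoE4 replicate 3 (background 2.65% and 2.14%), and 8 without apoE4 replicate 2 (background 5.47%). Without both apoE2 replicate 4 and apoE4 replicate 2 it was 4 (background 3.7%). The groups were separated for Efnb3, Ntng2 and Sema4d, all higher with apoE4 (4.55%, background 1.9% in that direction). Among the markers, the astrocyte Slc1a2 and the fibroblast Col1a1 and Col1a2 were called higher and the excitatory Neurod2 lower with apoE4 than with apoE2 in the block fit, and their part was not tested.

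Between apoE3 and apoE2, 0 of 66 were called without the block (0% of all tested genes; 0 at an unadjusted p under 0.05, background 2.28%; DESeq2 called 0, background 0.0528%), and 1 with it (1.52%, background 1.31%). DESeq2 with the block called 7 (background 4.26%). That gene was Epha5, at 57.4, 116, 86.1 and 31.8 CPM with apoE3 and 82.3, 125, 122 and 63.2 CPM with apoE2 (block -0.52 ± 0.12, adjusted p = 0.0486, lost in 13 of 16 fits with a library left out), and the count was 0 without both apoE2 replicate 4 and apoE4 replicate 2 (background 0.428%). Of the guidance genes, 0 met the 2-fold criterion (background 0.687%).

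The partners and effectors of these receptors, a list of 62 genes such as Dcc, L1 family adhesion proteins, small GTPase regulators and collapsin response mediators, were all tested. Without the block edgeR called 0 of them in each of the 6 comparisons, with 1 to 6 at an unadjusted p under 0.05 (background 2.28% to 6.43%), and DESeq2 called 0 or 1 (background 0.0528% to 0.957%). With the block, 7 were called higher and 6 lower with apoE3 (20.97% of the list, background 11.7%), 2 and 1 with apoE2 (4.84%, background 1.73%), and 3 and 1 with apoE4 (6.45%, background 3.3%). Between isoforms it called 1 for apoE4 against apoE3 (1.61%, background 1.76%; Rock2 higher), 2 for apoE4 against apoE2 (3.23%, background 4.44%; Srgap2 and Crmp1 lower) and 4 for apoE3 against apoE2 (6.45%, background 1.31%; Rgma and Chn2 higher, Dscam and Srgap2 lower). Higher with apoE3 were Rgma, a repulsive guidance molecule (23.1 ± 16.4 against 50.3 ± 20.1 CPM; block 1.26 ± 0.17, adjusted p = 0.000543), and Chl1, a co-receptor of Nrp1 (290 ± 76.7 against 467 ± 50.4 CPM; block 0.72 ± 0.11, adjusted p = 0.00116), together with Itgb1, Rhoa, Rras, Ablim1 and Dock1. Lower were Flrt3, which modulates Robo1 and Unc5 receptors (95.0 ± 25.04 against 65.0 ± 17.5 CPM; block -0.54 ± 0.11, adjusted p = 0.00559), the cytoskeletal kinase Rock2, the netrin receptor Dscam, its relative Dscaml1, Cntn1 and the netrin-G1 ligand Lrrc4c. With apoE2, Srgap2, a slit-robo GTPase-activating protein, rose from 114 ± 6.32 to 160 ± 15.02 CPM (block 0.50 ± 0.09, adjusted p = 0.0128), Ablim1 was also called higher (block 0.71 ± 0.13, adjusted p = 0.0147), and Vav2, an exchange factor downstream of Eph receptors, was called lower (39.96 ± 2.44 against 29.1 ± 1.95 CPM; block -0.46 ± 0.10, adjusted p = 0.0369). With apoE4, which shares the control libraries, Rgma (36.0 ± 20.4 CPM; block 0.67 ± 0.17, adjusted p = 0.0392), Ablim1 (block 0.55 ± 0.13, adjusted p = 0.0349) and Dock1 (block 0.72 ± 0.17, adjusted p = 0.0275) were higher and Flrt3 (block -0.42 ± 0.11, adjusted p = 0.0415) lower.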

How the data were processed

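Total RNA of 4 independent neuronal cultures per group was sequenced after ribosomal RNA removal. The authors aligned reads to mm10 with STAR and counted them per gene with HTSeq, and the labels also list CASAVA, Picard, bedtools, DESeq2 and R 3.3.0. The deposited values are raw read counts for 48397 gene symbols in 16 libraries; annotation release and strand setting are not given in the sources used here. Genes were kept with edgeR's filterByExpr (minimum count 10, total 15, proportion 0.7), which left 17038. Counts were scaled by TMM and tested with the quasi-likelihood test of edgeR 4.0.16 (limma 3.58.1, R 4.3.3) over all 16 libraries with 1 coefficient per group, with Benjamini-Hochberg adjustment over all tested genes. An SE is the size of the log2 fold change divided by the square root of F. CPM are counts scaled to a common TMM-adjusted library size, and exon lengths came from GENCODE M21 (mm10), matched by symbol for all 69 guidance genes.

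The titles number the libraries in each group, and no source used here says that a number marks a shared culture. Deviations from the group means correlated at 0.362 to 0.831 between libraries of the same number and at -0.830 to 0.569 between different numbers. The pairs of number 1 (0.362 to 0.552) lay within the range of different numbers. The fit with the number as a block is therefore given wherever it changes a call. Alternatives were size-factor scaling, DESeq2 1.42.0, other filters and leaving out each library. The script was tested on simulated counts.

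Members and lists were chosen with earlier results of these data known. Values are given for tested genes meeting the 2-fold criterion or an adjusted p under 0.05 in any comparison, for those called with the block (in the apoE3 comparison, the 10 with the smallest p), for the leading 2 per group in control, the 5 with the largest F between numbers, and a list of well-known members. Efnb2, Ntn4, Epha2, Epha10, Plxnb2, Sema3b and the separated genes, where outside this rule, were named after their values were seen. Reads not on a gene were 38.4% to 73.7% per library and stayed out of the totals.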

Additional observations from a re-analysis of the deposited data

Results flagged for a closer look

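In 29 guidance genes, 116 gene-by-group sets of 4 libraries were screened for a library far from the other 3 by Dixon's criterion, and 8 sets (6.90%) held one, where chance gives about 1 in 20. With apoE3, Epha1 was high in replicate 1 at 0.838 CPM, Ntng2 in replicate 2 at 34.0 CPM and Unc5d in replicate 2 at 63.1 CPM, whereas Nrp2 was low in replicate 3 at 125 CPM. Epha10 was high in apoE2 replicate 2 at 31.1 CPM, and Plxnc1 in control replicate 2 at 103 CPM and in apoE4 replicate 2 at 108 CPM. Sema3e was high in apoE4 replicate 3 at 119 CPM. Of the 8 values, 5 came from libraries numbered 2, the number in which 24 of the 56 guidance genes called between numbers had their highest mean.

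The direct tests between isoforms with the replicate block (edgeR) picked out 10 differences in 8 genes. Between apoE4 and apoE3 the log2 differences were 0.73 for Epha6, 0.65 for Ntng2, 0.47 for Plxna1 and -0.64 for Sema3c. Between apoE4 and apoE2 they were 0.90 for Ntng2, 0.42 for Plxna1, -0.52 for Plxnc1, 0.99 for Sema5b and -0.43 for Sema7a. Between apoE3 and apoE2 the difference was -0.52 for Epha5. Ntng2 and Plxna1 appeared in both apoE4 comparisons, which share the apoE4 libraries.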

How the results depend on the processing

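The number of guidance genes called depended on the replicate block more than on any other setting. With the replicate block, the counts of 0 became 5 for apoE2, 23 for apoE3 and 3 for apoE4 against control. Between isoforms they became 4 for apoE4 against apoE3, 5 for apoE4 against apoE2 and 1 for apoE3 against apoE2. The shares of all tested genes were 1.73%, 11.7%, 3.3%, 1.76%, 4.44% and 1.31% in the same order. DESeq2 without the block called 1 for apoE2 against control and 1 for apoE4 against apoE2. DESeq2 with the replicate block, chosen after seeing the data, called 9, 25, 4, 8, 8 and 7 in the same order. At the 2-fold criterion, apoE3 against control went from 1 (background 1.96%) to 3 with the block (4.55%, background 4.77%), 2 with DESeq2 and 4 with both. ApoE4 against control went from 0 (background 1.15%) to 1 with the block (1.52%, background 2.5%) and 1 with both. For apoE4 against apoE2 the count went from 1 (background 1.3%) to 0 with the block (background 2.1%). Shares of all tested genes at this criterion are not given for DESeq2. Size-factor scaling, other filters on low counts and fits to only the groups compared left every count within 1.5 times its value.

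When each of the 16 libraries was left out in turn without the block, the counts stayed at 0 to 0 in 5 comparisons and ran from 0 to 1 for apoE4 against apoE2, the 1 arising without apoE4 replicate 2. At the 2-fold criterion they ran from 0 to 2 for apoE2, apoE3 and apoE4 against control. For the replicate numbers they ran from 53 to 58. In the paired fit, also added after seeing the data, they ran from 1 to 10 for apoE2, 9 to 26 for apoE3 and 1 to 5 for apoE4 against control, 0 to 6 for apoE4 against apoE3, 2 to 8 for apoE4 against apoE2 and 0 to 3 for apoE3 against apoE2. The lowest apoE3 and apoE4 counts arose without control replicate 1, and apoE3 had 13 without control replicate 4, 11 without apoE3 replicate 1 and 12 without apoE3 replicate 4. With apoE2 replicate 4 and apoE4 replicate 2, which stand apart in their read tallies, both left out, the paired fit called 10 for apoE2, 26 for apoE3 and 5 for apoE4 against control, and 6, 4 and 0 between isoforms. A library left out also leaves fewer degrees of freedom.

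Over 42 comparisons of named genes, 879 of 965 alternative values kept direction and side of the threshold, 85 passed it and 1 reversed. That was Epha10 with apoE3, at 0.19 without control replicate 2 and at -1.30 without apoE3 replicate 2 (log2 fold changes). Between groups the reference fit, without the block, made no call among the guidance genes at an adjusted p under 0.05. A kept side of that threshold is thus the absence of a call, and the tally does not show how stable the block calls are. Depth limits Ntn5, Robo4 and Sema3g, with 34, 22 and 79 reads in all.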
